A study of Mus musculus with 2 samples.

Results

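The genes described here are the 3 D-type cyclins Ccnd1, Ccnd2 and Ccnd3, their kinases Cdk4 and Cdk6, the E-type cyclins Ccne1 and Ccne2 with their kinase Cdk2, and the pathway's end points Rb1 and E2f1. They were chosen by symbol, as 10 of the 43346 genes in the tables. CH12.LX is an immortalized B cell lymphoma line from a female mouse of strain B10.H-2aH-4bp/Wts, of unknown age, and the labels name no treatment. Total RNA from the line was sequenced in 2 libraries, biological replicates 1 and 2 of the single group, with 49278383 and 55950529 expected counts. The design holds no contrast between conditions, so levels are described and the libraries are compared with each other. The replicates have separate biosample records, but culture details are not given, so their spread may be partly technical. All 12 B cell markers examined were at 1 TPM (transcript abundance corrected for length and depth) or more in both libraries. Of 25 markers of other cell types, 22 were under 0.1 TPM in both libraries. The exceptions were the T cell receptor genes Cd3d, at 1.14 and 1.45 TPM in replicates 1 and 2, and Cd3g, at 2.69 and 3.04 TPM, and the myeloid receptor Csf1r, at 0.28 TPM in each. The defining T cell gene Cd3e had 0 counts in both.

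Cells commit to DNA replication at the end of the G1 phase. Growth signals raise D-type cyclins, which activate CDK4 and CDK6, and these kinases begin to phosphorylate the retinoblastoma protein, which otherwise holds E2F factors inactive. Freed E2F factors switch on genes of DNA synthesis and the E-type cyclins, which activate CDK2 and complete the phosphorylation. Mature B cells are known to rely mainly on cyclins D2 and D3, with cyclin D1 largely absent from normal B cells and aberrantly expressed in human mantle cell lymphoma.

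CH12.LX expressed every step of this pathway, but with very unequal levels. Of the 10 genes, 9 were detected, that is, at 1 TPM or more in both libraries, and 5 were at 10 TPM or more. The median of the 10 mean levels was 10.6 TPM, beside 6.67 TPM over the 8895 protein-coding genes detected. Cdk4 was the highest and Ccnd1 the lowest, and Ccnd1 was nearly silent. In these bulk libraries, a low level in all cells and a higher level in few cells cannot be told apart. Protein-coding genes held only 24.4% of TPM in replicate 1 and 24.3% in replicate 2, so these levels read low. Rescaled to protein-coding genes only, Cdk4 was at 338 ± 18.9 TPM (SD, n = 2). The deposited expected counts of all 10 genes were whole numbers in both libraries, to within 0.005, as were those of 84.8% of genes with counts in both libraries.

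**Figure D1:**
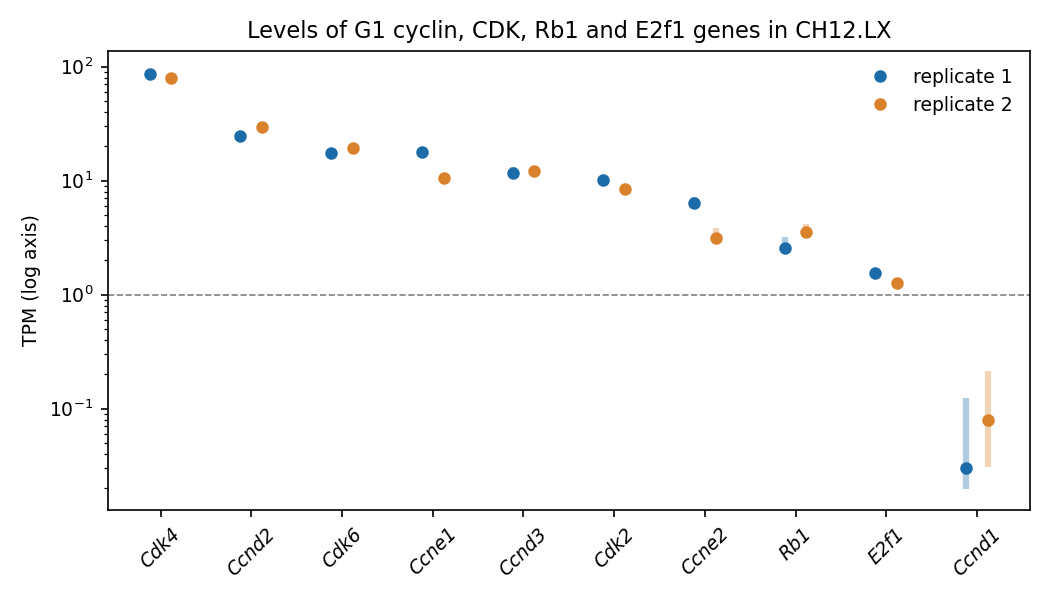
Level of each gene in TPM on a log axis, by library, in order of the mean. Points are the deposited TPM, faint bars the deposited credibility bounds, and the dashed line marks 1 TPM. Cdk4 is at 85.8 and 78.8 TPM in replicates 1 and 2, while Ccnd1 alone lies below the dashed line.

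Among the D-type cyclins, Ccnd2 was the main form. Ccnd2 (chromosome 6, 127125162 to 127152193, minus strand) was at 24.6 TPM in replicate 1, against 29.3 TPM in replicate 2, from 15031 and 19599 counts. Coordinates are from GENCODE M21 on GRCm38. Ccnd2 held 69.2% ± 2.10 of the summed D cyclin TPM (SD, n = 2). Its only transcript in the M4 tables, Ccnd2-201, has 5 exons and held all of it.

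Ccnd3 (chromosome 17, 47505051 to 47599691, plus strand) was at 11.7 TPM in replicate 1, against 12.1 TPM in replicate 2, and held 30.6% ± 2.18 of D cyclin TPM. Its level was the most similar of the 10 between the libraries, with 2361 and 2548 counts. Ccnd1 (chromosome 7, 144929931 to 144939925, minus strand), by contrast, had 12 and 16 counts and was at 0.03 TPM in replicate 1, against 0.08 TPM in replicate 2. Its coding transcript Ccnd1-201 was at 0.03 TPM in each library. The other 0.05 TPM in replicate 2 rested on 1.67 expected counts of Ccnd1-202, a retained-intron transcript of 470 bases. The level that 3 counts give was 0.00758 and 0.0147 TPM, so Ccnd1 RNA was above the counting floor, at 0.138% ± 0.0779 of D cyclin TPM. Of 6 markers of stroma and endothelium, cell types in which Ccnd1 is commonly expressed, 0 were detected, and they summed to 0.11 TPM in replicate 1, against 0.16 TPM in replicate 2. Col3a1 had 0 counts in both libraries, Kdr had 0 and 1, and Cdh5 had 12 and 30. Whether the few Ccnd1 reads came from such cells was not tested. Ccnd1 also shares 1100 exon bases with LTO1 on the opposite strand, at 2.40 and 2.39 TPM. Whether the counting used strand is not given in the sources used here, so reads from this stretch may belong to either gene.

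Ccnd3 has upstream and downstream groups of annotated starts, and most of its RNA was assigned to the downstream group. Ccnd3-205, a transcript of 5 exons and 876 coding bases that starts 88419 bases downstream of the first annotated start, held 89.0% of Ccnd3 in replicate 1 and 85.2% in replicate 2. By the deposited posterior mean percent it held less, 80.9% and 78.9%. The 8 transcripts that start downstream together held 93.3% and 89.0% of Ccnd3 TPM, and 91.8% and 90.5% of its counts. The 13 transcripts that start at the upstream end held 6.70% and 11.0% of TPM. Most of the upstream counts, 175 and 181, were of Ccnd3-216, a retained-intron transcript at 5.42% and 4.97% of TPM, and Ccnd3-207, a coding transcript, was at 0% in replicate 1 and 4.86% in replicate 2. The sequences around a start of each group are shown because these shares separate the groups. They come from RefSeq on GRCm38.p6, plus strand, for chr17:47504801-47505100 and chr17:47593217-47593516, and capitals mark the 50 bases from the start onwards.
Ccnd3 upstream start: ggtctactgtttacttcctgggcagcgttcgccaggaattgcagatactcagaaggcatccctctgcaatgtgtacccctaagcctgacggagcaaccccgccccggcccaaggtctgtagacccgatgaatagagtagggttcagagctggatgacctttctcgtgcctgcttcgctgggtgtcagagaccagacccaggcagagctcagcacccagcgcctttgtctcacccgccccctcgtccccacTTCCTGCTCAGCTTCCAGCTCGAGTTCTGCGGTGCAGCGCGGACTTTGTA
Ccnd3 downstream start: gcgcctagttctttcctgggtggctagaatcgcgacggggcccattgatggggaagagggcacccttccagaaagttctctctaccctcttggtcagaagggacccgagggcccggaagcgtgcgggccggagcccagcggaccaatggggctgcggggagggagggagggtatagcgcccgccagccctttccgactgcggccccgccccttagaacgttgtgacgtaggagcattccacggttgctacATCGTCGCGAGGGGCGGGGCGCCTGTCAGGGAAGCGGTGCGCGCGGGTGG
The downstream window had a GC content of 67.0% and the upstream window 59.3%. The share of each group is the estimate of the authors' quantification. Ccnd3 shares 361 exon bases with Bysl on the opposite strand, at 9.66 and 6.69 TPM.

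The kinases of the D cyclins were the most abundant of the 10 genes as a group. Cdk4 (chromosome 10, 127063534 to 127067920, plus strand) was at 85.8 TPM in replicate 1, against 78.8 TPM in replicate 2, higher than 98.2% of protein-coding genes by its mean. Cdk6 (chromosome 5, 3341485 to 3531008, plus strand) was at 17.4 TPM in replicate 1, against 19.4 TPM in replicate 2. Cdk4 held 81.7% ± 2.08 of the summed TPM of these kinases. Together they were at 103 TPM in replicate 1, against 98.2 TPM in replicate 2, which was 2.85 and 2.37 times the summed D cyclin TPM. With protein-coding transcripts only, a measure added after the values were seen, these ratios were 1.80 and 1.54.

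The TPM of Cdk4 depended strongly on how its transcripts are counted. Only 54.1% of it in replicate 1 and 54.8% in replicate 2 belonged to protein-coding transcripts, which were at 46.4 and 43.2 TPM. Retained-intron transcripts held 38.8% and 35.1%, and a transcript subject to nonsense-mediated decay held 7.08% and 10.1%. Cdk4-209, a retained-intron fragment of 468 bases, was at 25.7 TPM in replicate 1, against 21.6 TPM in replicate 2, and Cdk4-201, the longest coding transcript, at 26.0 and 18.3 TPM. Cdk4-201 was thus slightly ahead in replicate 1 and behind in replicate 2. Cdk4-205, also coding, held 20.9% ± 2.79 of Cdk4 TPM. By expected counts Cdk4-201 led in both libraries, with Cdk4-201 at 56.4% in replicate 1 and 46.7% in replicate 2 and Cdk4-209 at 9.10% and 8.86%. Short entries gain weight in TPM, since the same counts give a higher TPM on a shorter transcript. Cdk4-209 rested on 879 expected counts in replicate 1 and 790 in replicate 2. Cdk4 shares 641 exon bases with the oppositely oriented Tspan31, at 19.1 and 19.4 TPM, and the part of those reads in its level was not tested. On protein-coding transcripts alone, Cdk4 was still the highest of the 10 genes.

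Cdk6 came from 2 coding transcripts with the same coding length of 978 bases. Cdk6-202, the longer one at 3735 bases, held 74.2% ± 2.16 and Cdk6-201 held 25.9% ± 2.16 (SD, n = 2). The M4 tables hold no noncoding Cdk6 transcript, so none could take a share of its TPM.

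**Figure D2:**
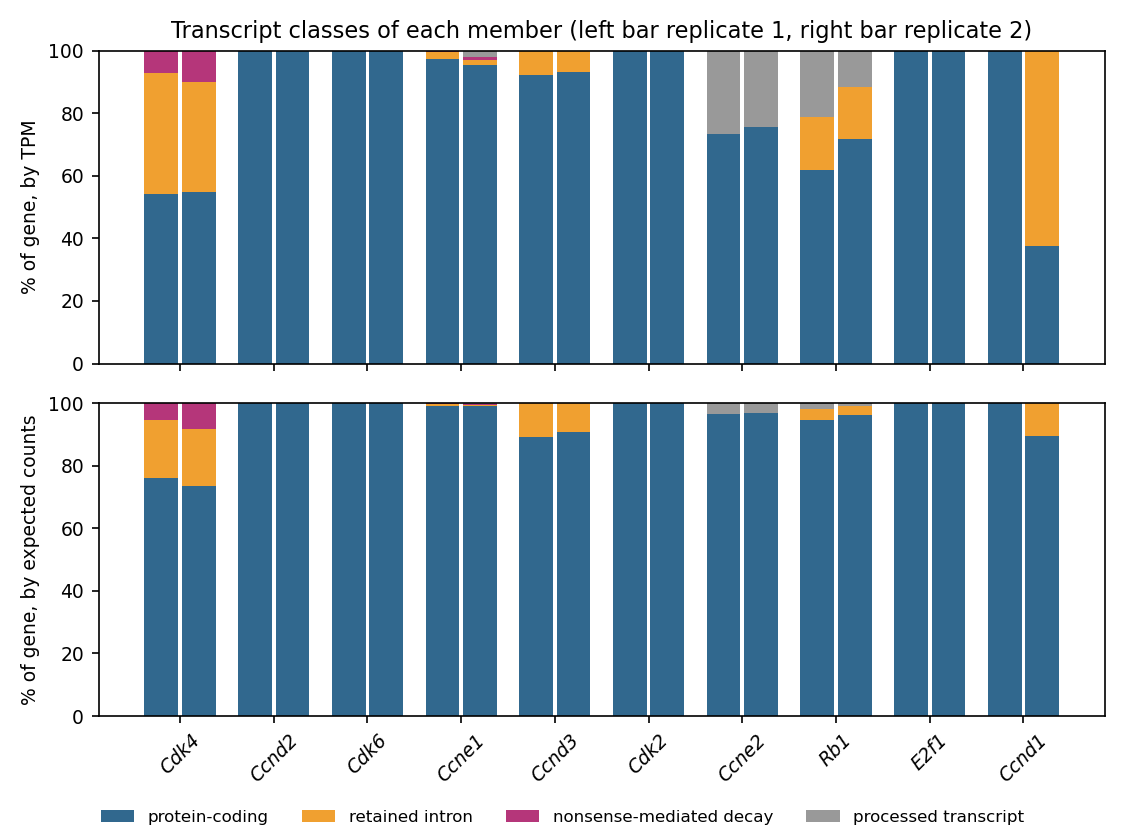
Share of each gene held by classes of transcript, in percent of the gene's TPM (top) and of its expected counts (bottom), with replicate 1 on the left of each pair of bars and replicate 2 on the right. Cdk4, Ccne2 and Rb1 have sizeable noncoding shares by TPM that shrink by counts, and the bars of Ccnd1 rest on 12 and 16 counts.

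The E-type cyclins were intermediate in level and differed more between the libraries than the other detected members. Ccne1 (chromosome 7, 38097984 to 38107534, minus strand) was at 18.0 TPM in replicate 1, against 10.5 TPM in replicate 2, from 3556 and 2209 counts. Ccne2 (chromosome 4, 11191351 to 11204779, plus strand) was at 6.36 TPM in replicate 1, against 3.13 TPM in replicate 2, from 1478 and 818 counts. Both were higher in replicate 1, yet Ccne1 held a similar share of the summed E cyclin TPM in each, 73.8% and 77.0%. Ccne1-201, the transcript of 12 exons, held 95.4% ± 1.71 of Ccne1. Ccne2-202, also of 12 exons, held 60.7% ± 4.79 of Ccne2 by TPM and 83.8% and 72.6% of its counts in replicates 1 and 2. Ccne2-205, a processed transcript of 432 bases, held 12.7% ± 1.72 by TPM but 1.81% and 1.42% of counts. Ccne2 shares 609 exon bases with Ints8 on the opposite strand, at 5.96 and 4.90 TPM.

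Cdk2 (chromosome 10, 128697939 to 128705031, minus strand), the kinase of the E cyclins, was at 10.2 TPM in replicate 1, against 8.39 TPM in replicate 2. The summed E cyclin TPM was 2.38 times that of Cdk2 in replicate 1 and 1.62 times in replicate 2, the reverse of the D cyclins, whose kinases exceeded them. Cdk2 had 2 transcripts, both coding, whose coding parts differ by a single in-frame exon. The shorter Cdk2-201, with 7 exons, held 83.3% of Cdk2 in replicate 1 and 67.0% in replicate 2. The longer Cdk2-202, with 8 exons, held 16.7% in replicate 1 and 33.0% in replicate 2, and its TPM was 1.70 and 2.77. The deposited credibility bounds of Cdk2-202 did not overlap, at 1.33 to 2.15 TPM in replicate 1 and 2.30 to 3.23 TPM in replicate 2. Those of Cdk2-201 did not overlap either, at 7.91 to 8.99 TPM in replicate 1 and 5.06 to 6.12 TPM in replicate 2. The share of all transcripts with bounds apart was not computed. The exon that sets Cdk2-202 apart is its exon 6, at chr10:128699976-128700119 on GRCm38, minus strand, with 144 coding bases or 48 codons. It is printed in capitals within the spliced GENCODE transcript, with 30 bases of the neighbouring exons on each side in lower case, above the junction of the same exons in Cdk2-201.
Cdk2-202: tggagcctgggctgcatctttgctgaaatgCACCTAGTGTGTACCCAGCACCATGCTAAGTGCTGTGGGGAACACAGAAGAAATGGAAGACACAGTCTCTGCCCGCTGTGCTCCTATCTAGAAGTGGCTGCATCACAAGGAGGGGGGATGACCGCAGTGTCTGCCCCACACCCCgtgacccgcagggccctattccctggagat
Cdk2-201: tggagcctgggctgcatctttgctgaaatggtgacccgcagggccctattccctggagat
A rodent form of Cdk2 with such an insert is known as a longer kinase isoform. The annotated ends of these transcripts also differ slightly, and which reads set the shares was not examined. No test of the difference in share was run, since each side has 1 library.

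Rb1 and E2f1 were the least abundant genes after Ccnd1. Rb1 (chromosome 14, 73183673 to 73325822, minus strand), which encodes the retinoblastoma protein, was at 2.56 TPM in replicate 1, against 3.52 TPM in replicate 2, from 832 and 1426 counts. The full coding transcript Rb1-201, with 27 exons, was at 1.58 and 2.53 TPM and held 94.5% and 96.2% of Rb1 counts. Short entries took part of the TPM. Rb1-206, a processed transcript of 408 bases, held 21.3% in replicate 1 and 11.7% in replicate 2, on only 15 and 12 counts. Its deposited TPM bounds overlapped, at 0.31 to 0.87 in replicate 1 and 0.22 to 0.69 in replicate 2. Rb1-204, a retained-intron transcript, held 12.1% ± 0.679. Rb1 shares 488 exon bases with Rcbtb2, at 9.91 and 9.24 TPM, and 408, as many as the length of Rb1-206, with Lpar6, at 0.76 and 0.69 TPM. Both lie on the opposite strand. The part of such reads in the level of Rb1 was not tested.

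E2f1 (chromosome 2, 154559407 to 154569892, minus strand), an activating E2F factor, was at 1.56 TPM in replicate 1, against 1.27 TPM in replicate 2, from 445 and 394 counts. Its transcripts E2f1-202, with 1290 coding bases, and E2f1-201, with 1155, held 61.2% ± 5.44 and 38.8% ± 5.44. E2f1 was the lowest of the activating E2F genes, with 24.7% ± 0.805 of their summed TPM. E2f2 stood at 1.87 and 1.76 TPM in replicates 1 and 2, and E2f3 at 2.74 and 2.23 TPM. Rb1 was the lowest of the pocket protein genes by its mean, although close to Rbl1 in replicate 2, beside Rbl1 at 3.89 and 3.60 TPM and Rbl2 at 3.93 and 4.29 TPM, and held 27.8% ± 4.38 of their summed TPM.

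In order of mean TPM the genes ran Cdk4, Ccnd2, Cdk6, Ccne1, Ccnd3, Cdk2, Ccne2, Rb1, E2f1 and Ccnd1. The values of the libraries overlapped between Cdk6 and Ccne1, between Ccne1 and Ccnd3, and between Ccne2 and Rb1, so the order of these neighbours does not exceed their spread. The other neighbours did not overlap. The order was the same with the M2, M3, posterior mean, FPKM, protein-coding and coding-transcript values. With 2 libraries of a single group, no gene can be named for a similar pattern over conditions.

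The libraries were compared by the ratio of scaled counts, replicate 1 over replicate 2, with a two-sided exact binomial test and Benjamini-Hochberg adjustment over 15438 genes. Only counting error enters this test, and it sets one library against the other rather than any conditions. A gene was called at an adjusted p of 0.05 or less with a ratio of at least 2, and 0 of the 10 genes were called, beside 4.77% of all genes tested (1.07% higher in replicate 1 and 3.71% higher in replicate 2). By adjusted p alone, 8 of the 10 passed, 5 higher in replicate 1 and 3 higher in replicate 2, beside 50.4% of all genes (25.1% higher in replicate 1 and 25.2% higher in replicate 2). Of all genes that passed by adjusted p, 49.9% were higher in replicate 1, against 64.2% with scaling by library totals, while the members kept a split of 5 and 3. The deposited TPM bounds of the libraries were apart for 7 of the 10, all but Ccnd1, Ccnd3 and Cdk4, beside 34.7% of all genes. The detected protein-coding genes are a nearer set for the 9 detected members, although the share with bounds apart was not computed for these genes. Of the 8894 of them tested, 7 were called higher in replicate 1 and 60 higher in replicate 2. By adjusted p alone, 3347 of them passed higher in replicate 1 and 2575 higher in replicate 2. Deep libraries put small differences past this test, so the sizes are given beside those of other genes. The median log2 ratio of the 10 genes was 0.10, beside -0.01 over all genes tested and 0.03 over the detected protein-coding genes.

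**Figure D3:**
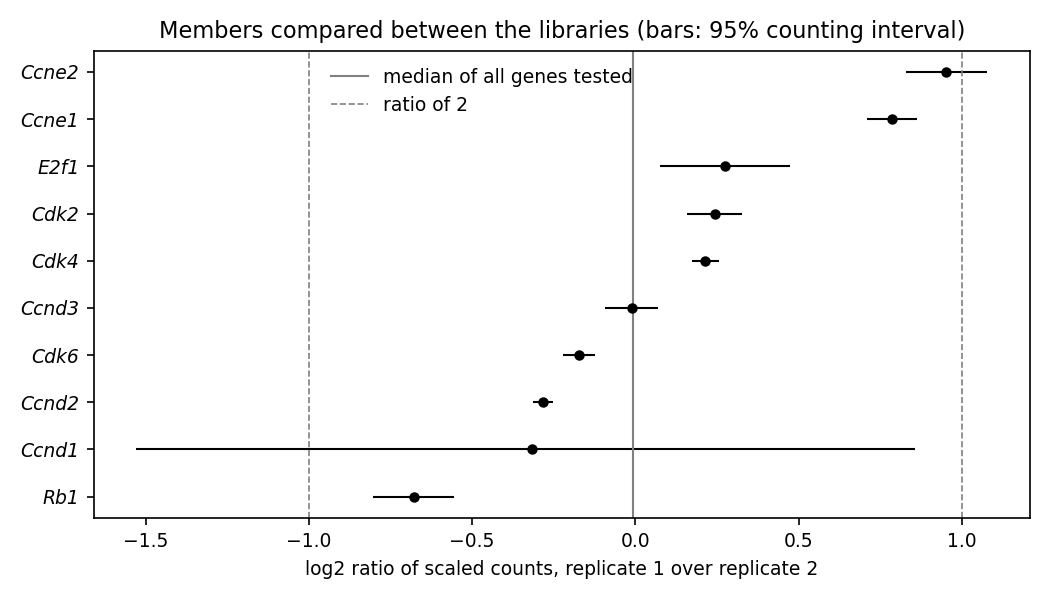
Log2 ratio of scaled counts, replicate 1 over replicate 2, for each gene, with the 95% exact counting interval as a bar. The solid line is the median of all genes tested and the dashed lines mark a ratio of 2. Both E cyclins lie far to the right, Rb1 lies to the left, and no point passes a dashed line.

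The E cyclins stood at the edge of the distribution. Ccne2 had a log2 ratio of 0.95 (95% counting interval 0.83 to 1.08, exact binomial adjusted p 1.11e-52), and 0.101% of the 8894 detected protein-coding genes tested had a ratio as high. Ccne1 had a log2 ratio of 0.79 (0.71 to 0.86, exact binomial adjusted p 6.99e-91), and 0.270% had a ratio as high. Ccne2 reached the ratio of 2, and was called, when counts were scaled by library totals without TMM factors, at a log2 ratio of 1.04.

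Rb1 lay on the other side, with a log2 ratio of -0.68 (-0.80 to -0.55, exact binomial adjusted p 9.64e-27), and 2.54% of the protein-coding genes had a ratio as low. The 5 other genes that passed by adjusted p differed less. Cdk4, Cdk2 and E2f1 were higher in replicate 1, at log2 ratios of 0.21, 0.24 and 0.27, and Ccnd2 and Cdk6 were lower, at -0.28 and -0.17. Ccnd3, at -0.01, and Ccnd1, at -0.32 with an interval of -1.53 to 0.86, did not pass. At 12 and 16 counts, ratios of Ccnd1 within that interval could not be told apart.

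By TPM, the summed D cyclins were 1.49 times the summed E cyclins in replicate 1 and 3.05 times in replicate 2. The D cyclins summed to 36.2 TPM in replicate 1, against 41.5 TPM in replicate 2, and the E cyclins to 24.3 and 13.6 TPM.

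The other genes of the pathway were described from 7 lists with 73 genes, of which 67 were detected. No list gene was called at a ratio of 2, and 53 passed by adjusted p alone, 44 higher in replicate 1 and 9 higher in replicate 2. Over all genes tested, 4.77% were called, and by adjusted p alone 25.1% passed higher in replicate 1 and 25.2% higher in replicate 2. Of the 8894 detected protein-coding genes tested, 3347 passed higher in replicate 1 and 2575 higher in replicate 2. The median over these lists was a log2 ratio of 0.19. Over all genes, 10.9% passed by adjusted p with a ratio of at least 1.5. Of the 5 list genes that did, Cdc25a, the phosphatase that activates CDK2, stood at 11.5 and 7.14 TPM in replicates 1 and 2. The replication licensing gene Cdc6 was at 19.5 and 11.8 TPM, and Rrm2, a subunit of ribonucleotide reductase, at 33.4 and 21.3 TPM. These 3 were named after their values were seen. The remaining pair, Cdkn1a and Cdkn1b, are inhibitors of the cyclin E kinase and were lower in replicate 1.

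Genes that E2F factors are known to switch on at the G1 to S step were all detected. All 20 had a ratio above 1 with each scaling and table tried, beside 49.0% of all genes tested, or 8945 of 15438 with library totals. By adjusted p of the exact binomial test 18 passed, all higher in replicate 1, beside 25.1% of all genes. Of the 8894 detected protein-coding genes tested, 4842 had a ratio above 1 and 3347 passed higher in replicate 1. The median log2 ratio of the list was 0.28. Pcna, the sliding clamp of DNA polymerase, stood at 112 and 84.5 TPM in replicates 1 and 2, and Mcm6, a subunit of the replicative helicase, at 70.2 and 63.2 TPM. Tk1, thymidine kinase, was at 55.3 and 53.9 TPM and did not pass. Among the lowest of the list were Pola1, a subunit of DNA polymerase alpha, at 8.16 and 7.06 TPM, and Ung, a uracil DNA glycosylase, at 12.4 and 9.13 TPM. These genes are also those of S phase cells, and the labels say nothing of how the cells were distributed over the cycle.

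The 4 CDK inhibitors tested lay on the side of Rb1, except that 1 of them, Cdkn2c, crossed 0 with scaling by library totals. Of 7 inhibitor genes, 4 were detected, and 3 passed by adjusted p, all higher in replicate 2, beside 25.2% of all genes tested. Cdkn1a, which encodes p21, was at 6.21 TPM in replicate 1, against 9.76 TPM in replicate 2, a log2 ratio of -0.59. Cdkn1b, which encodes p27, was at 3.02 TPM in replicate 1, against 4.60 TPM in replicate 2, a log2 ratio of -0.64. Among inhibitors of CDK4 and CDK6, Cdkn2c was at 3.56 and 3.80 TPM and did not pass, and Cdkn2d was at 2.56 and 3.31 TPM. Cdkn2a and Cdkn2b had 0 counts in both libraries.

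Tfdp1 and E2f4 were the most abundant genes of the remaining E2F network. Tfdp1, the DP subunit that binds DNA with E2F, was at 59.2 TPM in replicate 1, against 49.0 TPM in replicate 2, and the repressive E2f4 at 14.4 and 11.9 TPM. Of the 11 genes of other pocket proteins, E2F and DP factors, 9 were detected. By adjusted p, 6 passed higher in replicate 1 and 2 higher in replicate 2, beside 25.1% and 25.2% of all genes tested. E2f7, an atypical repressor, was the lowest at 0.43 and 0.27 TPM, followed by E2f8 at 1.29 and 0.92 TPM and Tfdp2 at 1.18 and 1.26 TPM.

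Among the CDK activators and kinase partners, all 10 genes were detected. The chaperones Hsp90ab1 and Cdc37, which help fold CDK4, were at 291 and 283 TPM and at 39.3 and 36.6 TPM in replicates 1 and 2. Of the CDK-activating kinase, Ccnh was at 9.52 and 9.69 TPM, although its counts gave a log2 ratio of 0.19, and Cdk7 at 2.05 and 1.57 TPM. In this list 7 genes passed higher in replicate 1 and 1 higher in replicate 2, beside 25.1% and 25.2% of all genes tested. The cyclins of later phases included Ccnb1 at 50.4 and 43.8 TPM, Ccna2 at 29.8 and 24.5 TPM, Ccnb2 at 25.0 and 24.2 TPM, and their kinase Cdk1 at 70.8 and 58.5 TPM. Ccna1, the germ cell form of cyclin A, had 0 counts.

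Of 13 genes of cyclin degradation, all were detected. Ddb1, an adaptor of the ligase that targets D cyclins through Ambra1, was at 74.2 TPM in replicate 1, against 67.4 TPM in replicate 2, and Skp1a, a core subunit of the ligases for cyclin E, at 61.0 and 41.6 TPM. Cks1b, a cofactor of Skp2 in the degradation of p27, was at 47.1 and 41.4 TPM. The lowest were Fbxo31 at 2.92 and 2.79 TPM, Fbxo4 at 3.72 and 3.87 TPM and Skp2 at 4.48 and 3.36 TPM. In this list 7 genes passed higher in replicate 1 and 2 higher in replicate 2, beside 25.1% and 25.2% of all genes tested. The MuvB list holds the complex that represses cell cycle genes in resting cells and its activating partners Mybl2 and Foxm1. Of its 7 genes, all detected, 3 passed higher in replicate 1 and 1 higher in replicate 2, beside these same shares. Mybl2 was at 11.9 and 9.60 TPM, Rbbp4 at 10.6 and 9.90 TPM and Lin52 at 1.62 and 1.41 TPM. Foxm1, the gene that passed higher in replicate 2, was at 3.43 and 4.02 TPM.

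**Figure D4:**
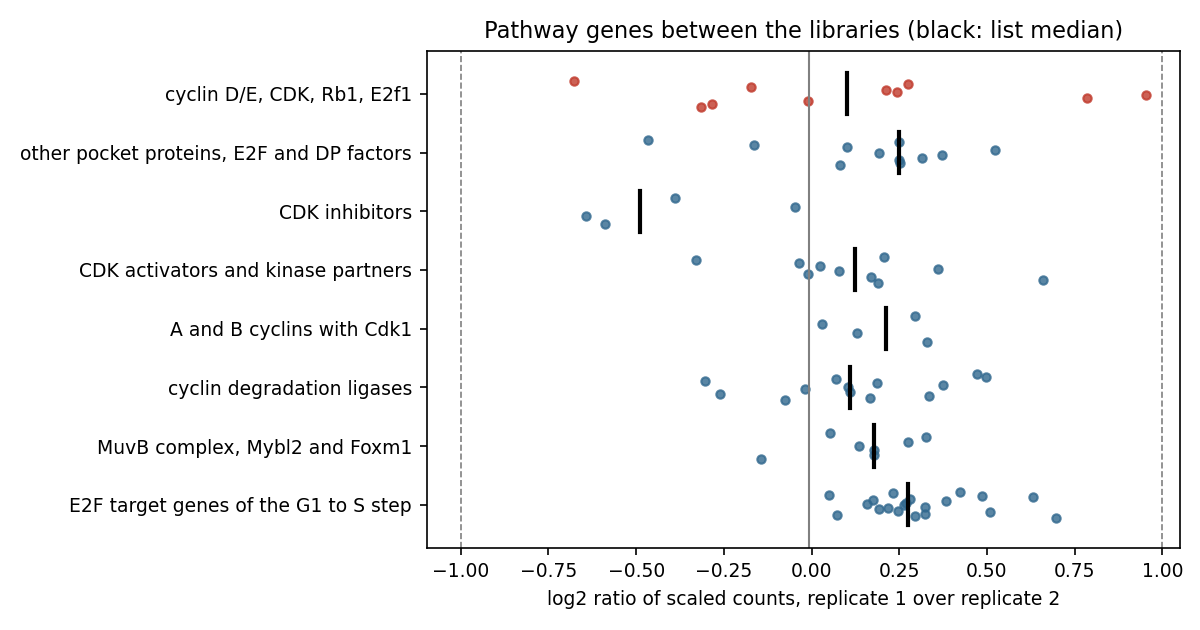
Log2 ratio of scaled counts, replicate 1 over replicate 2, for each tested gene of the pathway lists, with the list median in black. The grey line is the median of all genes tested. The 20 E2F target genes all lie right of zero with a median of 0.28, the 4 tested CDK inhibitors lie left of it with this scaling, Cdkn2c being the one that crosses with library totals, and the 10 described genes spread to both sides.

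Promoter windows were matched for 6 of the 10 genes, with 7 windows in all. Ccnd1, Ccnd2, Ccne2 and Rb1 were not matched. The E2f1 window lies wholly downstream of the GENCODE starts of both E2f1 transcripts and was left out, which left 6 windows of 5 genes. The E2F motif was searched on both strands of these windows in the permissive form TTTNNCGC, where N is any base. It was found in 2 of the 6 windows of 300 bases, beside 5.20% of 32544 windows, which were not matched for GC content. The Cdk2 window (chromosome 10, 128705002 to 128705301) held it as GCGGGAAA on the reverse strand, and the Cdk6 window (chromosome 5, 3343643 to 3343942) as TTTTACGC. A match is a description of these letters and not a site of binding.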

How the data were processed

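The members and gene lists were chosen with earlier results of these data known. Per the file headers, the authors deposited expected counts, TPM, posterior mean TPM and FPKM values per gene, and in the transcript tables the percent of each transcript in its gene. They also deposited other columns, the credibility bounds of TPM and effective lengths, per the file headers. Assembly mm10 and annotation releases M2, M3 and M4 are named in the manifest of each library. The M4 tables were the main ones. What aligned and quantified the reads, in which version and with what use of strand, is not given in the sources used here.

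Rows with no Ensembl identifier held 5.68e-05% and 5.36e-05% of counts in replicates 1 and 2 and were left out, which left 43346 genes. GENCODE M21, which uses that assembly, gave symbols for 42462 genes, with coordinates and transcript classes. Expected counts were rounded and scaled with TMM factors (edgeR 4.0.16, R 4.3.3) over genes with at least 10 counts in total. The comparison of libraries used an exact binomial test (two-sided, conditional on the sum), tried on simulated counts that held counting error only. Its intervals and floors of 3 counts cover counting error only. DESeq2 1.42.0 size factors, other tables, filters and thresholds were alternatives. Other steps ran in Python 3.11.15 with scipy 1.17.1 and pandas 2.3.3, and figures in matplotlib 3.10.9. Names came from the 10 members, the 3 highest and 3 lowest members of the pathway lists, and transcripts with at least 10% of a member in both libraries. Other names were chosen after their values were seen. A list gene that this rule covers is not reported here.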

Additional observations from a re-analysis of the deposited data

How the results depend on the processing

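No paired analysis was possible because the libraries form a single group. With a detection level of 10 TPM in place of 1 TPM, 5 of the 10 members and 30 list genes counted as detected. Cdk4 held 78.6% of Cdk4 and Cdk6 TPM in the M2 table and 78.5% in the M3 table, with its level at 69.7 and 69.5 TPM, and the cause was not tested. With protein-coding transcripts only, an alternative chosen after seeing the data, the Cdk4 share was 70.9% and the Ccne1 share 79.8%, since noncoding entries were then left out. Scaling by library totals called 1 member, Ccne2, and gave a median log2 ratio of 0.19 over the members. It also put Ccnd3, which was not called, above 0. By adjusted p of the exact binomial test alone, 8 members and 53 list genes passed, beside 50.4% of all genes tested. With a ratio of at least 1.5 as well, 3 members and 5 list genes were called, beside 10.9% of all genes tested. Leaving out each replicate in turn gave 9 members and 67 to 68 list genes detected, and shares of 67.8% to 70.7% for Ccnd2, 80.2% to 83.2% for Cdk4 and 73.8% to 77.0% for Ccne1. At 12 and 16 counts, Ccnd1 is the only member limited by depth at the level of the gene. Some transcripts of other members, such as Rb1-206 at 15 and 12 counts, also rest on few counts.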
